A study of Mus musculus with 4 samples.

Results

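The macrophage lineage transcription factor genes Spi1, Maf, Cebpa, Cebpb, Cebpd, Klf2, Klf4, Runx1 and Bhlhe40 were described in tumor-associated macrophages (TAMs). They were listed by symbol as regulators of the lineage, and all 9 were found by Entrez identifier among 16739 genes with a value. RNA sequencing covered 4 libraries of CD45+CD11b+F4/80+ cells sorted by FACS from subcutaneous B16-F10 tumors, a melanoma line of C57BL/6 origin. There were 2 wild-type (WT) libraries and 2 libraries labelled Trim24-deficient, all from C57BL/6 mice inoculated at 6 to 8 weeks of age and sorted, per the labels, on day 16. In the deficient mice a floxed Trim24 gene was excised by LysM-Cre, which is active in macrophages and also in neutrophils and other myeloid cells, so that the deletion was neither whole-body nor macrophage-specific. Trim24 encodes an E3 ubiquitin ligase with a bromodomain, and the study asked how its loss in macrophages bears on their polarization. Whether a library came from a single mouse or a pool is not given in the sources used here, so that the p-values measure the spread between these libraries.

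Macrophage identity rests on a small group of DNA-binding factors. PU.1, the product of Spi1, is an ETS factor that opens myeloid enhancers and is required for macrophages to form. The C/EBP factors bind beside it, C/EBPα during commitment of progenitors and C/EBPβ and C/EBPδ in inflammatory and alternative activation. RUNX1 acts earliest, at the emergence of blood cells, and remains at myeloid enhancers. c-Maf, the product of Maf, sustains the tissue-resident and interleukin-10-producing programme. KLF2 and KLF4 are zinc-finger factors that restrain inflammatory activation, and KLF4 also takes part in monocyte formation and in the response to interleukin-4. Bhlhe40 is a helix-loop-helix repressor that binds the E-box, acts in the circadian clock and restrains Il10. Transcript levels do not measure the amount or activity of these proteins.

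The libraries held 4476122 to 5172407 expected counts, and 3 counts corresponded to 0.58 to 0.67 in CPM, the normalised count per library size as scaled by edgeR's TMM method. The sort markers Ptprc, Itgam and Adgre1 were at 489 CPM or more in every library. Trim24 itself had 5.86 CPM in WT replicate 1 but 2.08 CPM in WT replicate 2, and 3.41 and 0.41 CPM in deficient replicates 1 and 2, so that its transcript did not separate the labels (log2 fold change -1.06, SE 0.82, adjusted p = 0.635, edgeR). Xist was at 6.46 to 10.9 CPM in WT and at 256 to 437 CPM in the deficient libraries, while Y-linked Ddx3y was at 73.7 to 102 CPM in WT and at 0.41 to 0.43 CPM in the others. The sex of the mice and the Trim24 label therefore cannot be told apart in any comparison that follows, and these values go against the sex matching stated in the study's methods. Summed monocyte markers (6 genes) ranged from 558 to 718 CPM in WT and from 1181 to 1680 CPM in the deficient libraries. Of the 6, 1 was called higher by the criteria given below, which called 0.372% of all tested genes. It was Hp, whose call was lost under other settings, also given below. Summed neutrophil markers were at 177 to 206 CPM and 272 to 411 CPM, with Ly6g at 0 in WT and at 1.92 CPM or less in the deficient libraries and Mpo and Elane listed in no library. Of the 4 neutrophil markers tested, 3 had a log2 fold change above 0 and 1, Cxcr2, below 0 (-0.30, with overlapping groups). Summed T and NK cell markers were at 81.0 and 61.5 CPM in WT and at 200 and 67.6 CPM in deficient replicates 1 and 2. Summed dendritic cell markers were likewise highest in deficient replicate 1, at 80.1 CPM against 37.8 to 49.6 CPM in the others. Summed melanoma markers were at 783 and 740 CPM in WT and 585 and 789 CPM in the deficient libraries. The part of these cells in the values below was not tested, and in bulk RNA fewer cells of a type and less RNA per cell cannot be told apart.

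The genes lie on separate loci of the GRCm38 assembly and differ in structure. Spi1 (chr2:91082374-91115759) has 5 exons in its longest counted transcript, Klf2 (chr8:72319062-72321654) has 3, Klf4 (chr4:55527137-55532475) has 5, Bhlhe40 (chr6:108660629-108666925) has 5 and Runx1 (chr16:92601466-92826074) has 8. Maf (chr8:115703253-115706894), Cebpa (chr7:35119293-35121928), Cebpb (chr2:167688915-167690432) and Cebpd (chr16:15887286-15889545) each consist of 1 exon in the transcripts counted. The mean transcript length ran from 1473 bases for Spi1 to 6832 bases for Runx1, and transcript GC content from 46.4% for Runx1 to 67.2% for Cebpb. Exons of 6 genes overlap an exon on the opposite strand: Maf with Gm15655, Cebpa with Gm45091, Cebpb with Tmem189, Cebpd with Spidr, Runx1 with Gm26626 and Bhlhe40 with 0610040F04Rik. Whether the counting used strand is not given in the sources used here, so that reads in these overlaps cannot be assigned to 1 of the genes with certainty.

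Promoter sequences are shown for the genes whose start regions hold the E-box, including Bhlhe41, the relative of Bhlhe40, and for Klf2 and Cebpa, which lack it. The 250 bases before the start were taken from RefSeq for GRCm38.p6, which gave windows for 5 of the 9 genes. Capitals mark, on either strand, the E-box CACGTG bound by Bhlhe40 and Bhlhe41, the GC box GGGCGG bound by SP and KLF factors, and the TATA box TATAAA. Among 32851 promoter windows of the same length from 27025 genes, 6.02% held the E-box, 32.7% the GC box and 12.4% the TATA box. GC boxes could overlap or abut each other.
Bhlhe41 (chr6:145865421-145865670, minus strand): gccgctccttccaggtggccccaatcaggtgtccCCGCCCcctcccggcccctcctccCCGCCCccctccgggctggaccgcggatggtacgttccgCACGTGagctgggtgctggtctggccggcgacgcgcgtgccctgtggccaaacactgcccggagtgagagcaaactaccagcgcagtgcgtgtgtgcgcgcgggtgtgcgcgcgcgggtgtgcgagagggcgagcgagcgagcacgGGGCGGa
Klf4 (chr4:55532476-55532725, minus strand): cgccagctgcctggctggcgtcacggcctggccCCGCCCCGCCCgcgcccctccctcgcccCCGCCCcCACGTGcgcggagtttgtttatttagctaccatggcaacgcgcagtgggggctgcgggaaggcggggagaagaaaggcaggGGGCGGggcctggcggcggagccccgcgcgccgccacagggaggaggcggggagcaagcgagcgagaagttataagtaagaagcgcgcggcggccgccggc
Runx1 distal start (chr16:92826075-92826324, minus strand): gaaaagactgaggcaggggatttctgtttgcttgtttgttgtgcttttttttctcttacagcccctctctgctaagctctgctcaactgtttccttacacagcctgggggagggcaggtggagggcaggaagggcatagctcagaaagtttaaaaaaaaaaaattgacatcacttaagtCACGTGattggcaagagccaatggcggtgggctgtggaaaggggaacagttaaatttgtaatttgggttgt
Klf2 (chr8:72318812-72319061, plus strand): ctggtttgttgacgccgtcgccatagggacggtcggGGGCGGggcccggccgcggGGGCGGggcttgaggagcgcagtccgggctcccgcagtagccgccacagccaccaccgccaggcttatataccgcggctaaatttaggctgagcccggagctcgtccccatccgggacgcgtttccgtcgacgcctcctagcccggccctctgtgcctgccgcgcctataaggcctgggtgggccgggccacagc
Cebpa (chr7:35119043-35119292, plus strand): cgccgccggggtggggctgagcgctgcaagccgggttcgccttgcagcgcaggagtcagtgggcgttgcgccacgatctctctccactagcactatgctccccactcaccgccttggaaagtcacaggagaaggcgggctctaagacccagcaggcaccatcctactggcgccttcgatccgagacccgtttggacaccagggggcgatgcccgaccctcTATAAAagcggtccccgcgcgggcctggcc
The E-box began 153 bases before the start of Bhlhe41, 182 bases before that of Klf4 and 71 bases before the distal start of Runx1. The Cebpb window, not printed, held 5 GC boxes, the Klf4 window 4, the Bhlhe41 window 3 and the Klf2 window 2. The TATA box of Cebpa began 30 bases before its start, the usual distance of that element. Window GC content was 81.6% for Cebpb, 74.0% for Klf4, 73.6% for Bhlhe41, 71.2% for Klf2, 67.6% for the proximal Runx1 start and 66.4% for Cebpa, against 45.6% for the distal Runx1 start and a median of 52.4% over all windows. These matches are descriptions of letters, and no binding was measured.

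Levels differed widely between the genes. On the FPKM scale, which divides by transcript length, Spi1 was at 352, 349, 366 and 292 in WT replicates 1 and 2 and deficient replicates 1 and 2, a mean of 340 ± 32.8 (SD, n = 4). It ranked first of the 9 in all 4 libraries, lay at the 97.8 to 98.4 percentile of expressed genes, and supplied 72.7% to 77.5% of the summed FPKM of the 9 genes. Maf ranked second in all 4 libraries, with FPKM values of 39.2, 75.3, 37.9 and 35.7 and a mean of 47.0 ± 18.9. The mean FPKM of Spi1 was 7.22 times that of Maf and 140 times that of Klf4, the lowest of the 9.

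Below Maf followed Bhlhe40 at 20.9 ± 6.6 FPKM, Cebpa at 9.87 ± 3.09, Cebpd at 8.65 ± 4.46, Runx1 at 8.33 ± 1.69, Klf2 at 5.67 ± 1.91, Cebpb at 4.03 ± 1.66 and Klf4 at 2.43 ± 0.87 (SD over 4 libraries). The ranges of Spi1 and Maf, and of Maf and Bhlhe40, did not overlap. Every later pair of neighbours overlapped, although Runx1 exceeded Klf2 in 4 of 4 libraries. The spread of single genes differed too. The highest library was 1.24 times the lowest for Spi1 on the CPM scale and 1.48 times for Runx1, but 3.48 times for Cebpd, 2.52 times for Bhlhe40 and 2.50 times for Cebpb.

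**Figure D1:**
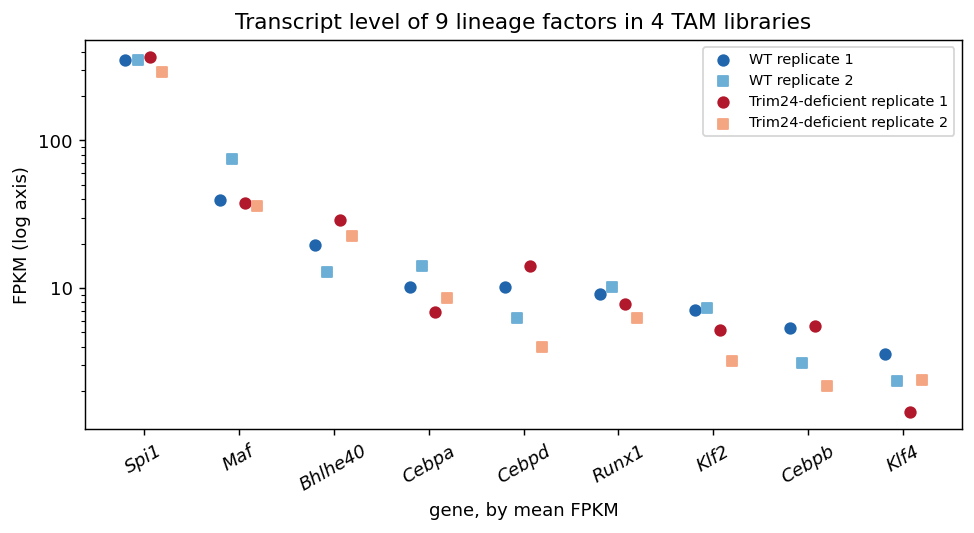
FPKM (vertical log axis) of each of the 9 genes (horizontal axis, ordered by mean) in each of the 4 libraries, blue for WT and red for the libraries labelled Trim24-deficient. Spi1 lies between 292 and 366 FPKM in all 4, while Klf4 lies between 1.45 and 3.57.

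None of the 9 genes was called different between the labels. A call required more than a 1.5-fold change with an FDR under 0.05 in edgeR's quasi-likelihood test, which called 42 of 11302 tested genes, or 0.372%. All 9 genes passed the low-count filter, and 0 of 9 were called by edgeR, by DESeq2 (1.46% of genes called) or by limma on log2(FPKM + 1) (0.207%). At an unadjusted p under 0.05, 1 of 9 passed in edgeR, against 12.2% of all tested genes. In DESeq2 1 of 9 passed, against 910 of 16692 genes. In limma on log2(FPKM + 1) 3 of 9 passed, against 1462 of 11093 genes. With library totals in place of TMM, 3 of 9 passed in edgeR, against 1717 of 11302 genes. The log2 fold change (deficient over WT) was above 0 for 3 genes and below 0 for 6, with a median of -0.33, against a median of -0.006 over all tested genes. The sign of Spi1, Cebpd and Cebpb changed under other settings, and that of Maf changed without WT replicate 2. On the CPM scale the 2 deficient libraries lay above both WT libraries for Bhlhe40 alone of the 9 (21.4% of tested genes) and below both for Cebpa, Klf2 and Runx1, 3 of 9 (23.0% of tested genes). The groups overlapped for the other 5. On the FPKM scale 1 of 9 lay above (12.3% of tested genes) and 4 of 9 below (35.3%), Maf being the fourth.

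**Figure D2:**
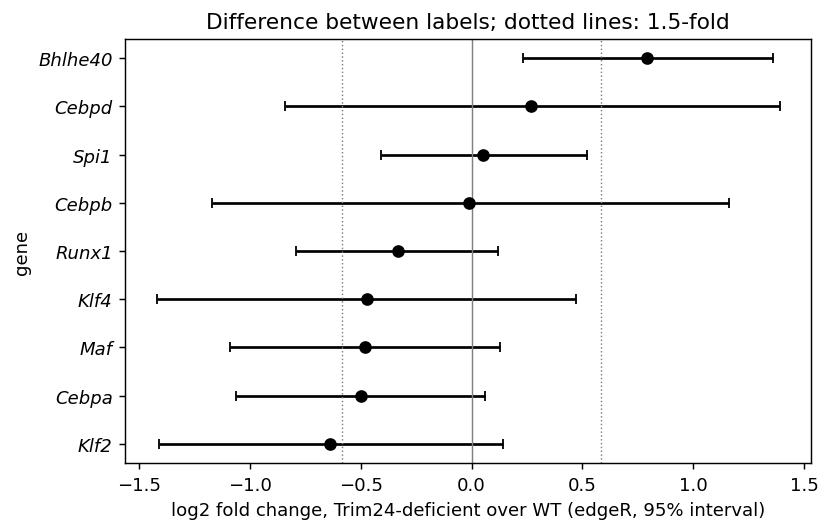
Log2 fold change of each gene (horizontal axis, deficient over WT, edgeR) with its 95% interval, and the genes on the vertical axis. Only the interval of Bhlhe40, from 0.23 to 1.36, lies wholly on one side of 0, and no adjusted p passed 0.05.

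Among the pioneer and lineage-determining factors, Spi1 was the most even. Its normalised counts were 503 and 477 CPM in WT and 562 and 455 CPM in the deficient libraries. The highest and the lowest values both belonged to the deficient group, which therefore enclosed the WT values. The log2 fold change was 0.05 (SE 0.21, 95% interval -0.41 to 0.52, adjusted p = 0.94), an interval that leaves out a 1.5-fold change in either direction. Its sign changed with the scaling, from -0.09 with library totals to 0.05 with TMM.

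Runx1 was at 62.2 and 66.3 CPM in WT and at 57.1 and 44.8 CPM in the deficient libraries. Both deficient values were below both WT values, and the log2 fold change was -0.33 (SE 0.20, interval -0.79 to 0.12, adjusted p = 0.538). With a trend of fold change on gene length removed, Runx1 was at -0.138 (edgeR, adjusted p = 0.804). Its DNA-binding partner Cbfb was at 60.0 and 69.0 CPM in WT and 48.8 and 44.6 CPM in the deficient libraries (log2 fold change -0.47, SE 0.19, adjusted p = 0.377). As a share of the summed FPKM of Runx1, Runx2, Runx3 and Cbfb, Runx1 took 20.9% and 21.2% in WT and 22.0% and 23.2% in the deficient libraries, while that sum was 43.6 and 47.8 FPKM in WT and 35.6 and 26.9 FPKM in the deficient libraries. Without Cbfb, a grouping chosen after seeing the data, the Runx1 share was 41.8% and 46.9% in WT and 39.8% and 50.8% in the deficient libraries, with overlapping groups.

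The 3 C/EBP genes differed from each other in how they varied. Cebpa was at 26.0 and 34.8 CPM in WT and at 19.0 and 24.0 CPM in the deficient libraries. The deficient values were the 2 lowest, and the log2 fold change was -0.50 (SE 0.25, interval -1.06 to 0.06, adjusted p = 0.447). Cebpb, the factor required for Arg1 induction in macrophages, was at 7.88 and 4.38 CPM in WT and at 8.73 and 3.49 CPM in the deficient libraries, from only 17 to 41 counts per library. Both of its groups held a high and a low library, the log2 fold change was -0.01 (SE 0.52), and the interval of -1.17 to 1.16 did not exclude a doubling or a halving.

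Cebpd followed the same order of libraries as Cebpb, at 22.4 and 13.3 CPM in WT and 33.7 and 9.66 CPM in the deficient libraries. Replicate 1 of each label was high and replicate 2 low, and the log2 fold change was 0.27 (SE 0.50, interval -0.84 to 1.39, adjusted p = 0.861). The deficient libraries alone thus spanned the whole range of the gene. The ratio of Cebpd to Cebpb FPKM was steadier, at 1.90, 2.03, 2.57 and 1.84, than the ratio of Cebpd to Cebpa, at 1.01, 0.45, 2.07 and 0.47. Summed T and NK cell markers were likewise highest in deficient replicate 1 and next in WT replicate 1, and their part in the Cebpd values was not tested.

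Within the C/EBP family, the 3 lineage genes supplied a minority of the transcript. Ddit3, which encodes the stress-induced factor CHOP, took 52.6% and 47.6% of the summed FPKM of the 7 listed C/EBP genes in WT and 49.6% and 65.5% in the deficient libraries. Cebpa took 12.7% and 19.3% in WT and 8.93% and 10.9% in the deficient libraries, groups that did not overlap (exact two-sided permutation test, p = 0.333, the smallest that 2 against 2 libraries allow). The Cebpb share was 6.74%, 4.25%, 7.22% and 2.78% in the same order, and the Cebpd share 12.8%, 8.64%, 18.5% and 5.12%. The 7 genes include Cebpz. Without it, a grouping chosen after seeing the data, Cebpa took 14.1% and 22.1% in WT and 9.81% and 12.1% in the deficient libraries. Cebpe, a granulocyte factor, was at 2.34 CPM or less and was not tested.

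Maf varied mainly through 1 WT library. Its normalised counts were 141 and 258 CPM in WT and 146 and 140 CPM in the deficient libraries. WT replicate 2 stood apart from the other 3, which lay within 140 to 146 CPM. The log2 fold change was -0.48 (SE 0.27, interval -1.09 to 0.13, adjusted p = 0.503), and without WT replicate 2 it was 0.02. On the FPKM scale the groups did not overlap, at 39.2 and 75.3 against 37.9 and 35.7.

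Klf2 and Klf4 were among the least abundant of the 9. Klf2 was at 12.5 and 12.3 CPM in WT and at 9.80 and 6.16 CPM in the deficient libraries. The WT libraries agreed closely and both deficient libraries were lower, with a log2 fold change of -0.64 (SE 0.34, interval -1.41 to 0.14, adjusted p = 0.482). Klf4 was at 10.7 and 6.67 CPM in WT and at 4.69 and 7.81 CPM in the deficient libraries. These groups overlapped, and the log2 fold change was -0.47 (SE 0.42, interval -1.42 to 0.47, adjusted p = 0.687).

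The KLF transcript of these cells came mostly from other members. Klf6, an injury-responsive factor, took 43.9% to 48.6% of the family's summed FPKM, while Klf2 took 3.32% and 3.42% in WT and 2.79% and 1.77% in the deficient libraries, and Klf4 0.79% to 1.68%. Of the 12 other KLF genes with a value, 7 were tested and 0 were called. Klf11 had the largest difference, at 10.5 and 9.79 CPM in WT and 6.39 and 6.58 CPM in the deficient libraries (log2 fold change -0.64, SE 0.34, adjusted p = 0.473). Klf7 was at 29.1 and 37.1 CPM against 23.9 and 24.0 CPM (log2 fold change -0.47, SE 0.22, adjusted p = 0.433).

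**Figure D3:**
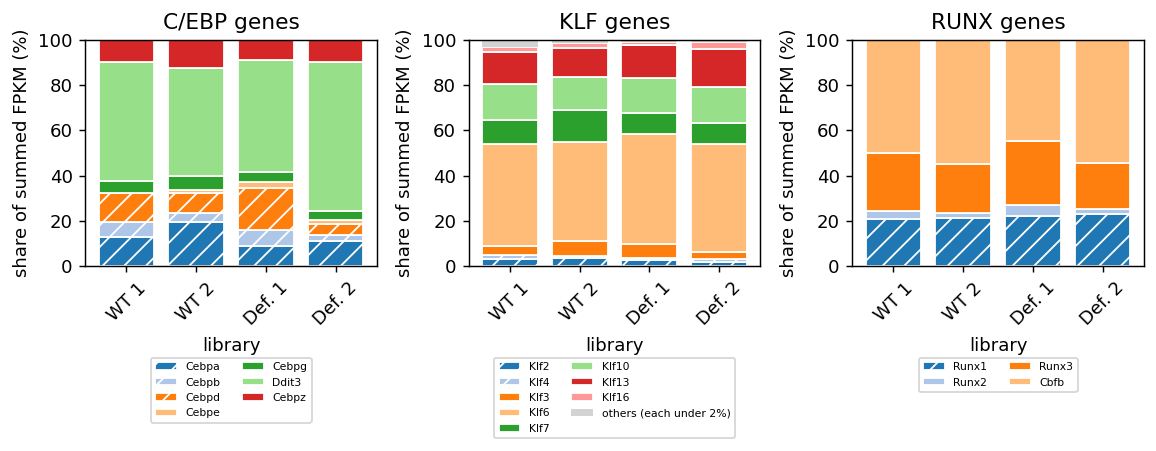
Share of the summed FPKM of each family (vertical axis, percent) taken by each gene in the 4 libraries (horizontal axis, Def. standing for Trim24-deficient), with the genes described here hatched. Ddit3 and Klf6 fill the largest part of the C/EBP and KLF bars, while Runx1 takes 20.9% to 23.2% of the RUNX bars.

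Bhlhe40 had the largest difference between the labels. Its normalised counts were 60.0 and 37.5 CPM in WT and 94.6 and 74.6 CPM in the deficient libraries, or 48.7 ± 15.9 against 84.6 ± 14.1 (SD, n = 2 each). Both deficient libraries were above both WT libraries. The log2 fold change was 0.79 (SE 0.25, interval 0.23 to 1.36), with an unadjusted p of 0.0109 and an adjusted p of 0.243 (edgeR), so that it was not called. Without deficient replicate 2 the log2 fold change was 0.96 (adjusted p = 0.00931) and the gene was called, in a fit that called 5.54% of 11770 genes and took the lone deficient library to vary like the WT libraries. Leaving out other libraries gave values down to 0.50, so that the direction held in each of those fits while the call did not.

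Bhlhe41, the only close relative of Bhlhe40 and a repressor of the same E-box, had the opposite order. It was at 51.9 and 80.6 CPM in WT and at 20.4 and 39.9 CPM in the deficient libraries (log2 fold change -1.13, SE 0.32, interval -1.86 to -0.40, unadjusted p = 0.00642, adjusted p = 0.213). Both deficient libraries were below both WT libraries. Without deficient replicate 2 the log2 fold change was -1.69 (adjusted p = 0.000103) and the gene was called, in the same fit as Bhlhe40, and without deficient replicate 1 it was -0.73 and not called. WT replicate 2 was the highest of the 4 for Bhlhe41 and the lowest for Bhlhe40, and deficient replicate 1 the reverse. The FPKM ratio of Bhlhe40 to Bhlhe41 was 2.24 and 0.90 in WT and 8.95 and 3.62 in the deficient libraries. Bhlhe40 took 69.1% and 47.4% of their summed FPKM in WT and 90.0% and 78.4% in the deficient libraries, a share chosen for computation after the values were seen (exact permutation p = 0.333, the smallest possible). The Bhlhe41 promoter printed above holds the E-box, as did 6.02% of all windows, the Klf4 and distal Runx1 windows among them. A part of Bhlhe40 in the Bhlhe41 values was not tested.

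**Figure D4:**
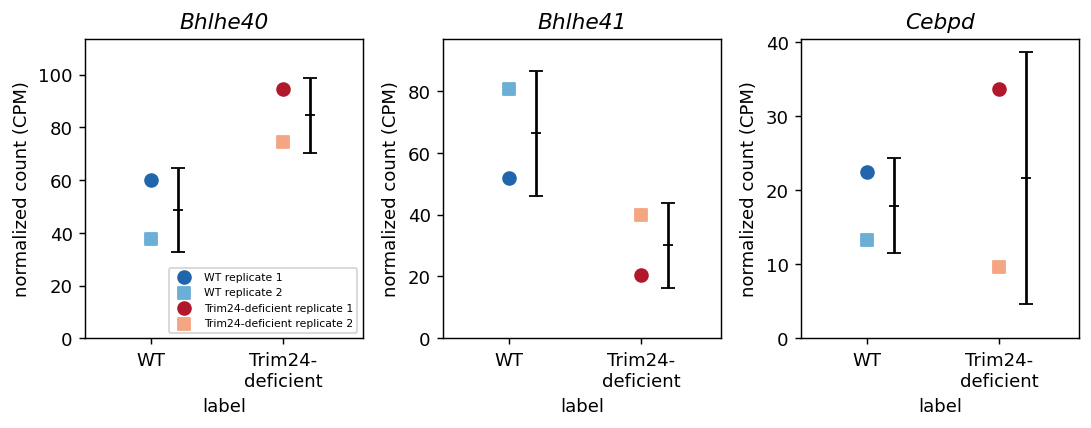
Normalised counts (CPM, vertical axes from 0) of Bhlhe40, Bhlhe41 and Cebpd by label (horizontal axes), with points for libraries and bars for the mean and SD of 2 libraries. For Bhlhe40 and Bhlhe41 the groups lie apart in opposite directions, whereas the 2 deficient libraries of Cebpd, at 33.7 and 9.66 CPM, enclose both WT libraries.

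Other relatives and myeloid regulators gave 0 calls among those tested in the MAF (3), RUNX (3), C/EBP (3), ETS (10) and other myeloid (6) lists, at 0.372% of all genes. At an unadjusted p under 0.05 (edgeR), 1 RUNX-list gene and 2 other myeloid regulators passed. Irf8, the partner of PU.1 in monocyte and dendritic cell formation, was at 330 and 294 CPM in WT and 517 and 388 CPM in the deficient libraries (log2 fold change 0.54, SE 0.22, adjusted p = 0.367). Lmo2, a haematopoietic bridging factor, was at 50.3 and 47.7 CPM against 35.6 and 31.4 CPM (log2 fold change -0.55, SE 0.20, adjusted p = 0.309). Mafg, a small MAF protein, was at 15.8 and 19.8 CPM against 12.6 and 11.5 CPM (log2 fold change -0.56, SE 0.28, adjusted p = 0.452). Ets2 was at 62.6 and 75.4 CPM against 46.2 and 57.5 CPM (log2 fold change -0.41, SE 0.21, adjusted p = 0.452).

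The genes listed as known targets of C/EBP factors had higher values in the deficient libraries, although none of the 3 C/EBP lineage genes was called. Of 14 listed, 11 were tested, 3 were called higher and 0 lower (0.372% of all genes called), and all 11 tested lay above both WT libraries on the CPM scale (21.4% of all genes) and 10 of 11 on the FPKM scale (12.3%). Their median log2 fold change was 2.21, against -0.006 over all tested genes. This and the other lists were chosen with earlier results of these data known. Such shares and medians therefore describe the listed genes only, not the targets of a factor as a class. Il1b, which encodes interleukin-1β, was at 28.7 and 33.8 CPM in WT and 106 and 189 CPM in the deficient libraries (log2 fold change 2.24, SE 0.28, adjusted p = 0.0123). Ptgs2, the inducible cyclooxygenase, was at 17.6 and 11.7 CPM against 61.8 and 105 CPM (log2 fold change 2.51, SE 0.31, adjusted p = 0.0112). Hp, which encodes haptoglobin, was at 6.87 and 7.71 CPM against 22.6 and 31.2 CPM (log2 fold change 1.88, SE 0.29, adjusted p = 0.0368). The call of Hp was lost with library totals (adjusted p = 0.0737), with upper-quartile scaling (0.0519) and without WT replicate 1 (0.0827) or 2 (0.121), and all 3 calls were lost in limma on log2(FPKM + 1), where each had an adjusted p of 0.0782.

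Larger but more variable differences in that list were not called with all 4 libraries, and their calls changed with the setting. Saa3, an acute-phase protein gene, was at 4.24 and 2.29 CPM in WT and at 18.1 and 161 CPM in deficient replicates 1 and 2 (log2 fold change 4.77, SE 0.92, adjusted p = 0.0774). Lcn2, a granule and acute-phase gene, was at 1.01 and 0.83 CPM against 3.83 and 17.9 CPM (log2 fold change 3.52, SE 0.78, adjusted p = 0.123). Nos2, the inducible nitric oxide synthase, was at 12.5 and 2.50 CPM against 45.4 and 49.5 CPM (log2 fold change 2.65, SE 0.49, adjusted p = 0.0697). Nos2 was called without any 1 of the libraries, with log2 fold changes of 1.92 to 4.25, in fits that called 0.563% and 0.215% of genes without WT replicates 1 and 2 and 3.46% and 5.54% without deficient replicates 1 and 2. Nos2 and Saa3 were also called with no filter on low counts (adjusted p = 0.0362 each, 0.371% of genes called), and Saa3 (0.0403) and Lcn2 (0.00624) were called by DESeq2. With 1 library left out Saa3 ran from 2.46 to 5.61 and was called without either deficient library, and Lcn2 ran from 2.03 to 4.24 and was called without deficient replicate 1. For Saa3 and Lcn2, deficient replicate 2 was the highest, the library in which Cebpb (3.49 CPM) and Cebpd (9.66 CPM) were lowest. That Cebpb value rested on 17 counts, and a part of Cebpb or Cebpd in the values of Saa3 and Lcn2 was not tested. Hp is also in the monocyte list, and S100a8, S100a9 and Csf3r of this list are also in the neutrophil list. Summed markers of both cell types were higher in the deficient libraries, as given above, and their part in these differences was not tested.

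Known PU.1 targets showed smaller differences. Of 15 tested, 0 were called (edgeR) and 5 had an unadjusted p under 0.05. On the CPM scale both deficient libraries lay above both WT libraries in 12 of 15 (21.4% of all genes), with a median log2 fold change of 0.43. On the FPKM scale only 5 of 15 did so (12.3%), 1 lay below (35.3%) and 9 overlapped. Ctss, which encodes cathepsin S, was at 3031 and 2575 CPM in WT and 5011 and 4103 CPM in the deficient libraries (log2 fold change 0.70, SE 0.24, adjusted p = 0.275). Fcgr3 was at 1093 and 1091 CPM against 1153 and 2301 CPM (log2 fold change 0.66, SE 0.31, adjusted p = 0.422). Deficient replicate 2 carried this difference, which was 0.08 without that library and 1.08 (adjusted p = 0.00935, called) without deficient replicate 1. Itgam, which encodes CD11b, was at 732 and 489 CPM against 1172 and 741 CPM (log2 fold change 0.65, SE 0.29, adjusted p = 0.408), and was called without deficient replicate 2 (0.94, adjusted p = 0.0245) but not without deficient replicate 1 (0.28). The scavenger receptor gene Msr1 was at 817 and 649 CPM against 1046 and 1131 CPM (log2 fold change 0.57, SE 0.22, adjusted p = 0.34). Csf1r, Itgam, Cd14, Fcgr1, Cd68 and Adgre1 of this list are also in the macrophage marker list. Summed macrophage markers were at 11224 and 9388 CPM in WT and 14149 and 12574 CPM in the deficient libraries. The part of macrophage content in the values of the PU.1 list was not tested.

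Known MAF targets had no common direction. Of 9 tested, 0 were called, 0 had an unadjusted p under 0.05 (edgeR), and the log2 fold changes ran from -0.43 to 0.59 with a median of 0.11. The complement genes C1qa, C1qb and C1qc were between 2815 and 6476 CPM in every library. F13a1 was at 514 and 475 CPM in WT and at 320 and 1163 CPM in the deficient libraries (log2 fold change 0.59, SE 0.46, adjusted p = 0.643). The mannose receptor gene Mrc1 was at 1257 and 1452 CPM against 664 and 1353 CPM (log2 fold change -0.43, SE 0.32, adjusted p = 0.621). Lyve1 was at 29.9 and 20.8 CPM against 5.32 and 49.3 CPM, and Cd163 at 23.0 and 17.9 CPM against 7.88 and 35.8 CPM. For each of these 4 genes the 2 deficient libraries differed from each other more than the groups did. Without deficient replicate 1 F13a1 was called (log2 fold change 1.24, adjusted p = 0.00102) in a fit that called 3.46% of genes, and without deficient replicate 2 Mrc1 was called (-1.03, adjusted p = 0.0187).

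Of 4 KLF2 and KLF4 targets, 2 were tested and 0 were called, with 1 at an unadjusted p under 0.05 (edgeR). S1pr1, a sphingosine-1-phosphate receptor gene that KLF2 is known to activate in T cells, was at 9.89 and 21.0 CPM in WT and 1.92 and 5.96 CPM in the deficient libraries (log2 fold change -1.96, SE 0.54, adjusted p = 0.20), and without deficient replicate 2 it was called (-2.99, adjusted p = 0.000915). For S1pr1 both deficient libraries were below both WT libraries (23.0% of all genes). The other tested gene, Thbd, was at 11.9 and 16.3 CPM against 16.6 and 10.5 CPM, with overlapping groups (log2 fold change -0.06). A part of Klf2 in these values was not tested.

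Of 5 tested genes that Bhlhe40 is known to repress, 0 were called, 1 had an unadjusted p under 0.05 (edgeR; 12.2% of all genes) and the median log2 fold change was -0.48. On the CPM scale 1 of 5 lay below both WT libraries (23.0% of all genes) and the other 4 overlapped. Nr1d1, which encodes the clock repressor REV-ERBα, was at 10.3 and 7.71 CPM in WT and 2.13 and 1.85 CPM in the deficient libraries (log2 fold change -2.17, SE 0.45, adjusted p = 0.102), and it was called without deficient replicate 1 (-2.26, adjusted p = 0.0371) or 2 (-2.07, adjusted p = 0.0398). Both deficient libraries were below both WT libraries. Per1 was at 29.7 CPM in WT replicate 1 and at 11.1 CPM or less in the other 3 libraries (log2 fold change -0.91, SE 0.45, adjusted p = 0.447, and 0.09 without WT replicate 1). Per2 was at 4.64 and 2.71 CPM against 4.05 and 1.23 CPM (log2 fold change -0.48, SE 0.64, adjusted p = 0.804). Il10 was at 19.6 and 11.5 CPM against 13.2 and 15.2 CPM, with overlapping groups. The hour at which mice were killed is not given in the sources used here.

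Several of the 9 genes respond to cell handling, so early-response and stress genes were examined beside them. Of 14 tested, 0 were called, 6 had an unadjusted p under 0.05 (edgeR; 12.2% of all genes), and the median log2 fold change was 0.07. On the CPM scale 4 lay above both WT libraries (21.4% of all genes) and 4 below (23.0%). Fosb was at 12.3 and 7.50 CPM in WT and 2.13 and 2.67 CPM in the deficient libraries (log2 fold change -2.03, SE 0.46, adjusted p = 0.128), and Fos at 414 and 225 CPM against 203 and 167 CPM (log2 fold change -0.79, SE 0.28, adjusted p = 0.305). Fosb was called without deficient replicate 2 (-2.20, adjusted p = 0.0247), and Fos without deficient replicate 1 (-0.93, adjusted p = 0.0499), while Fos was at -0.27 without WT replicate 1. Nr4a1 was at 12.3 and 10.8 CPM against 18.1 in both deficient libraries (log2 fold change 0.64, SE 0.27, adjusted p = 0.39), and Hspa1b at 14.9 and 14.6 CPM against 7.88 and 8.63 CPM (log2 fold change -0.84, SE 0.30, adjusted p = 0.305). Its near-identical paralog Hspa1a had the opposite order, at 128 and 96.1 CPM against 151 and 177 CPM (log2 fold change 0.55, SE 0.21, adjusted p = 0.34), and reads shared by the pair make both values uncertain. Their part in the values of the 9 genes was not tested.

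**Figure D5:**
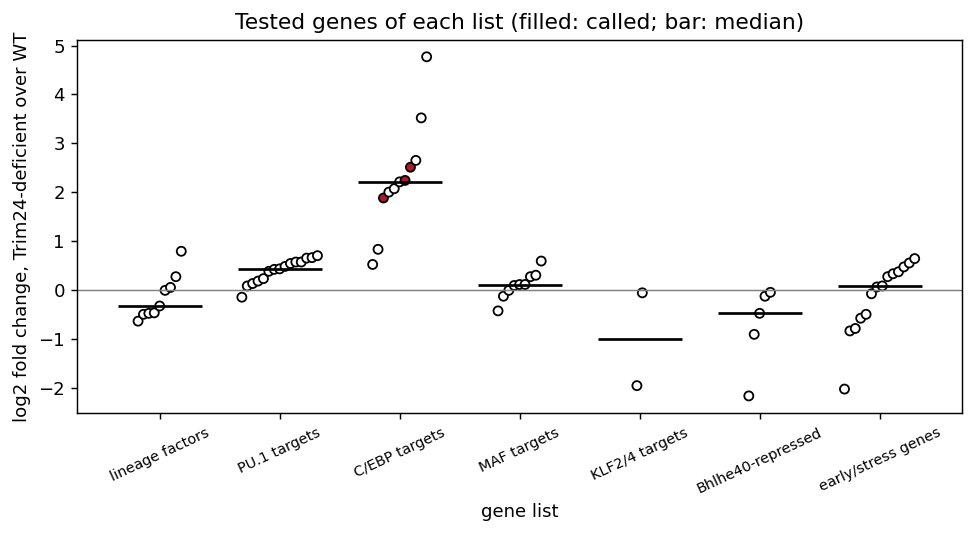
Log2 fold change (vertical axis, deficient over WT) of each tested gene in the 9 lineage factors and in lists of known targets (horizontal axis), with called genes filled and medians as bars. The C/EBP list has a median of 2.21 and 3 called genes, and the lineage factors have a median of -0.33 and 0. All lists were chosen with earlier results of these data known.

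Cebpb, Cebpd, Klf4 and Bhlhe40 varied by more than 1 on the log2 CPM scale, and for each the 2 genes with the most similar pattern over the 4 libraries were found among 9113 genes. Likeness was the root mean square difference of centred log2 CPM, with smaller values closer. For Bhlhe40 these were Siglece (0.01), at 79.0, 50.2, 127 and 99.0 CPM, and Pfkfb3 (0.05), at 110, 72.7, 170 and 133 CPM. For Cebpd they were Gimap4 (0.03), at 18.6, 11.0, 29.4 and 8.22 CPM, and Grap2 (0.09). For Cebpb they were Gar1 (0.03) and Copz2 (0.08), and for Klf4 Palb2 (0.06) and Mt1 (0.07), the latter at 73.5, 44.8, 34.7 and 60.0 CPM. With 4 libraries, such likeness is a description only.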

How the data were processed

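Samples were grouped by title into 2 WT and 2 Trim24-deficient TAM libraries. Reads had been aligned by the authors to GRCm38/mm10 (Bowtie) and summarised per gene with RSEM. The deposited expected count is not normalized (77.1% of values were whole), and the deposited FPKM is scaled by RSEM to transcript length and library total. Deposited gene lengths gave the mean transcript lengths above and served to examine and remove a length trend. A symbol was found for 16698 of 16739 genes.

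Rounded expected counts were analysed with edgeR 4.0.16 (R 4.3.3): filterByExpr left 11302 genes, TMM gave factors of 0.943 to 1.08, and glmQLFit with glmQLFTest compared the labels, with no block in the design. A call needed more than a 1.5-fold change and a Benjamini-Hochberg FDR under 0.05 over all tested genes. Standard errors equal the change over the square root of F, and 95% intervals use the moderated degrees of freedom. Positions, exons and overlaps come from RefSeq and GENCODE for GRCm38. The floor of 3 counts (0.61 to 0.64 CPM) covers counting error only. Libraries of one label were not duplicates, since chi-square over degrees of freedom was 8.57 in WT and 19.2 in the deficient pair.

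The 9 genes and all lists of relatives, targets and markers were chosen with earlier results of these data known. All 9 genes are named. From each list come the called genes and at most 4 others with the largest log2 fold change, given here if at least 0.4 in size, together with defining markers. Some listed genes, and the family share of Maf, are not reported here. Further genes are named by level only where a family share or ratio rests on them, and Hspa1a, Lyve1, Cd163 and Thbd were chosen after their values were seen. Likeness was computed for genes with a log2 CPM range above 1, among genes whose mean log2 CPM was 3 or more. Scripts were tested on simulated data.

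The settings varied were a block on replicate number, DESeq2 1.42.0, library totals, upper-quartile scaling, no filter, a minimum of 10 counts in every library, limma 3.58.1 with a pseudocount of 1 or 0.1 FPKM (genes reaching 1 FPKM in 2 libraries, or all genes), removal of a gene length trend, no fold threshold, counts for FPKM in family shares, narrower families (chosen after seeing the data), and each library left out in turn.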

Additional observations from a re-analysis of the deposited data

How the results depend on the processing

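The number of genes called was 42, and it moved to 163 with DESeq2 (140 higher, 23 lower), 23 and 20 with limma on log2(FPKM + 1) and log2(FPKM + 0.1), 0 with limma without a filter (1636 at an unadjusted p under 0.05), and 25 to 652 with 1 library left out. Of the 9 lineage genes, 0 were called in each alternative except 1, Bhlhe40, without deficient replicate 2 and with the replicate block, so that leaving out a library gave 0 to 1. The same replicate number is all that pairs the libraries (deviations of same-numbered libraries correlated at 0.165). With the replicate number as a block, 634 genes were called (425 higher, 209 lower), Bhlhe40 among them (log2 fold change 0.82, adjusted p = 0.00517), and Bhlhe41 as well (-1.17, adjusted p = 2.81e-05).

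Scaling by library totals shifted the median log2 fold change of all genes by -0.148 and limma on FPKM by -0.127 to -0.146, and changes under these settings are read against that shift. Spi1, at 0.05, changed sign to -0.0923 with library totals, -0.000442 with upper-quartile scaling, -0.101 in the 3 limma fits and -0.0179 with the length trend removed. Cebpb was 0.0074 with DESeq2, and Cebpd was -0.0512, -0.0829 and -0.0512 in the limma fits. Of 126 alternative values for the 9 genes, 108 kept direction and call, 2 became called and 16 changed sign. Of 386 for the other named genes, 338 kept both, 13 lost a call, 31 gained one and 4 changed sign. Hp, Il1b and Ptgs2 lost their calls in the limma fits.

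With each library left out in turn, values ran from -0.101 to 0.201 for Spi1, -0.839 to 0.0228 for Maf, -0.803 to 0.509 for Cebpb, -0.883 to 0.911 for Cebpd, -0.626 to 1.24 for F13a1, -1.03 to 0.00395 for Mrc1, -1.49 to 0.0941 for Per1 and -1.55 to 0.136 for Per2. Differences in family share, in percentage points, ran from -2.72 to 1.72 for Cebpb and -5.58 to 7.83 for Cebpd. The cause of these changes was not tested. Fold changes and length correlated across genes (rho -0.249), and -0.00815 remained once the trend was removed. Cebpb rested on 17 to 41 counts per library, and counting error was not separated from the spread between libraries.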

Other observations

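Some values outside the lists' named genes stood apart in 1 WT library and were chosen after they were seen. Klf9, a KLF factor induced by glucocorticoids, was at 9.29 CPM in WT replicate 1 and at 1.04, 0.43 and 1.23 CPM in WT replicate 2 and deficient replicates 1 and 2, and it fell below the low-count filter. Dusp1, a phosphatase gene also induced by glucocorticoids, was at 421 CPM in WT replicate 1 and at 176, 153 and 247 CPM in the other libraries (log2 fold change -0.58, SE 0.38, adjusted p = 0.567, edgeR). Per1 had its highest value in the same library, at 29.7 CPM, as did the early-response gene Fos, at 414 CPM. A part of glucocorticoids or of cell handling in these values was not tested.

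Arg1, the arginase gene that C/EBPβ is known to induce, was at 545 and 185 CPM in WT and at 1720 and 1345 CPM in the deficient libraries (log2 fold change 2.07, SE 0.43, adjusted p = 0.099, edgeR). Both deficient libraries were above both WT libraries, while Cebpb was at 7.88 and 4.38 CPM against 8.73 and 3.49 CPM. Within each label the library with more Cebpb also had more Arg1. Of the called genes of the C/EBP target list, Il1b and Hp were lower in that library in both labels. Ptgs2 was lower in it in the deficient pair only. A part of Cebpb in these values was not tested.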
